A study of Mus musculus with 6 samples.

Results

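The ERBB receptor tyrosine kinases and the growth factors of the EGF family that bind them were described in whole mammary tumours of MMTV-PyMT mice. The genes were chosen by name: Egfr, Erbb2, Erbb3 and Erbb4 among the receptors, and Areg, Ereg, Hbegf, Btc, Tgfa and Egf among the ligands. Each was taken from the array row that the platform annotation assigns to that gene alone. Of the 10 genes, 9 had such a row, all with 1 row each, out of 19937 genes with a row of their own. No row was assigned to Areg, so it was not analysed here. One further row is assigned to both Erbb2 and Sympk and was not used.

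Tumours came from 2 groups of female FVBN mice. The first group received TMP195, an inhibitor of the class IIa histone deacetylases, at 50 mg/kg once a day into the peritoneum, and the second received the vehicle DMSO in the same way. All 6 mice, DMSO mice included, carried the MMTV-PyMT transgene, in which a viral promoter active in mammary epithelium drives the polyoma middle T antigen, and were aged 75 to 90 days when checked for tumours before the first dose. The sources used here give the length of dosing as 5 days in one place and 2 weeks in another. One tumour from each of the 3 mice per group was hybridised to an Affymetrix array, so replicates are different mice, and the small number of arrays limits the precision.

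The ERBB receptors dimerise when an EGF-family ligand binds and then signal through the RAS-ERK and PI3K-AKT pathways. EGF, TGF-alpha and amphiregulin bind the EGF receptor. Betacellulin, HB-EGF and epiregulin bind both the EGF receptor and ERBB4. The neuregulins bind ERBB4, and some of them also bind ERBB3. ERBB2 binds no ligand of its own, and ERBB3 has little kinase activity, so both act as partners of the other receptors. In the mammary gland amphiregulin and the EGF receptor serve duct growth, and ERBB4 serves the milk-producing alveoli in pregnancy and lactation. ERBB2 is the receptor amplified in a subset of human breast cancers, whereas in this mouse model the oncogene is middle T, a membrane protein that recruits SRC, SHC and PI3K.

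No member passed the test for a difference between the groups. With limma and Benjamini-Hochberg adjustment, 0 of the 9 members and 0% of all genes passed an adjusted p of 0.05, and the smallest adjusted p of any gene was 1.00. Before adjustment, 1 member, Ereg, had a limma p under 0.05, against 2.52% of all genes, or 1.34% on the lower side. No member reached a difference of 1.5-fold, as 1.28% of all genes did (0.507% higher and 0.772% lower). The median difference of the members was 0.05 on the log2 scale, against -0.001 over all genes, and it was -0.01 without DMSO tumour 2, 0.11 without DMSO tumour 1 and 0.02 without DMSO tumour 3. What set these genes apart from each other was how far single tumours departed: 4 members varied less than the median gene over the 6 tumours, while Erbb4 in TMP195 tumour 2 was at 0.316 times, and Egf at 0.334 times, the median intensity of the other 5 tumours.

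**Figure D1:**
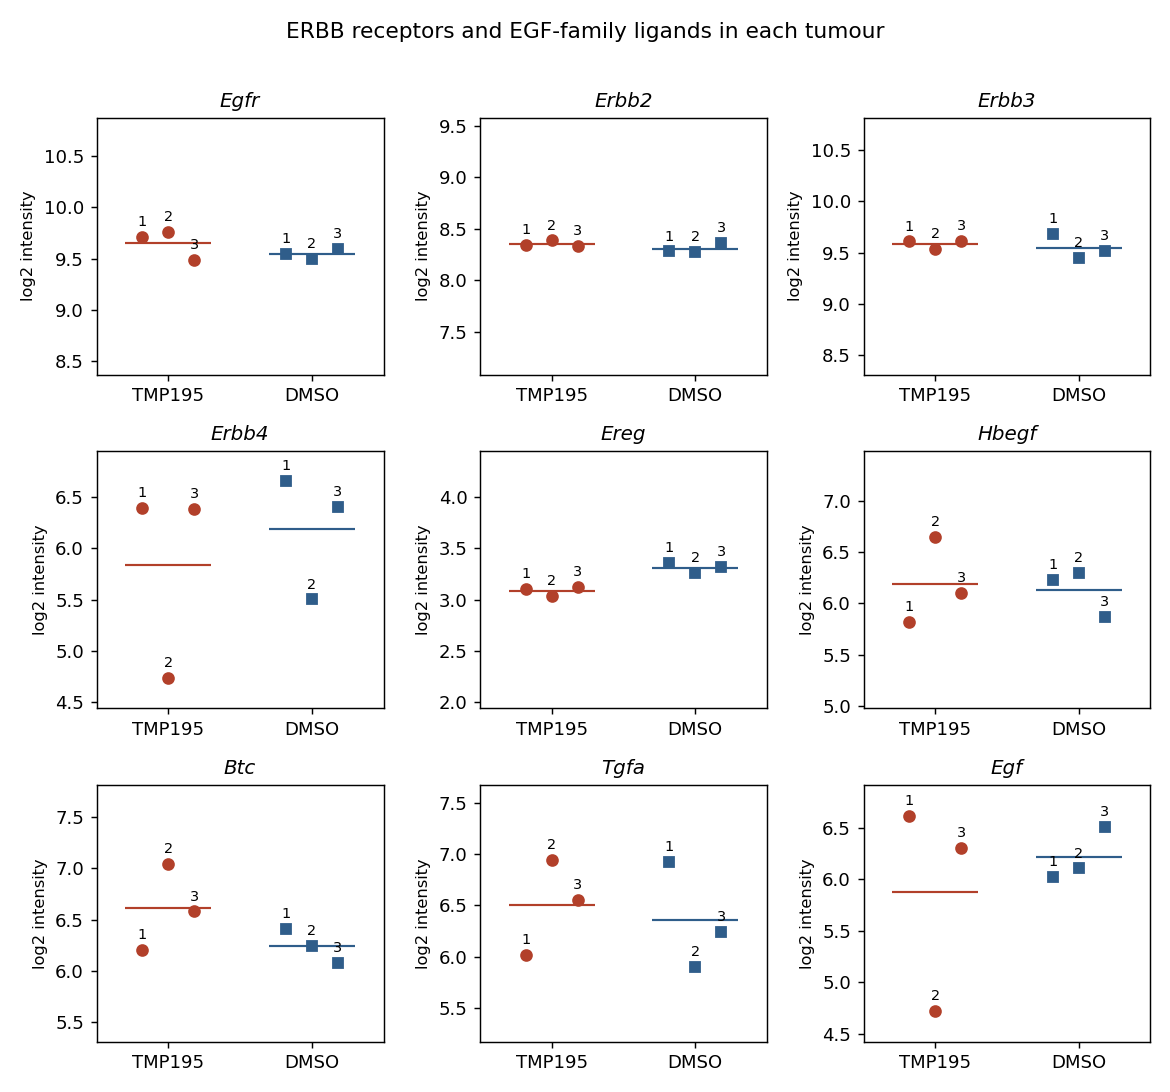
Log2 intensity of each of the 9 genes (vertical axis, spanning 2.5 log2 units in every panel) in the TMP195 tumours (circles) and the DMSO tumours (squares), with tumour numbers beside the points and lines at the group means. Egfr, Erbb2, Erbb3 and Ereg lie in narrow bands, and TMP195 tumour 2 is far below the other tumours in Erbb4 and Egf and highest in Hbegf, Btc and Tgfa.

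Among the receptors, Egfr, Erbb2 and Erbb3 were steady. Egfr, the receptor of EGF and TGF-alpha, had log2 intensities of 9.71, 9.76 and 9.48 in TMP195 tumours 1 to 3, against 9.54, 9.49 and 9.59 in DMSO tumours 1 to 3. The groups overlapped through TMP195 tumour 3, the lowest of all 6 tumours. The difference was 0.11 ± 0.10 (SE) with a 95% interval of -0.14 to 0.35 (limma; adjusted p = 1.00). It was 0.19 with TMP195 tumour 3 left out, 0.05 with TMP195 tumour 2 left out and 0.03 when DMSO tumour 2 was left out as well.

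Erbb2 had 8.34, 8.39 and 8.33 in the TMP195 tumours, against 8.28, 8.28 and 8.36 in the DMSO tumours. DMSO tumour 3 lay above TMP195 tumours 1 and 3, so the groups overlapped. Its range over the 6 tumours was 0.11 on the log2 scale, or 1.08-fold, and was smaller than that of all but 1.64% of genes. The difference was 0.05 ± 0.08 (SE; interval -0.15 to 0.24), and it was 0.03 without TMP195 tumour 2, 0.08 without DMSO tumour 3 and 0.01 with array weights. The interval from all 6 tumours excludes a change of this transcript as large as 1.5-fold in either direction.

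Erbb3, the partner that links the receptors to PI3K, had 9.61, 9.54 and 9.62 in the TMP195 tumours, against 9.68, 9.45 and 9.52 in the DMSO tumours. Both the highest and the lowest value belonged to DMSO tumours. The difference was 0.04 ± 0.10 (SE; interval -0.19 to 0.27), and it was -0.01 without DMSO tumour 2 and 0.11 without DMSO tumour 1.

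Erbb4 varied more than any other member. Its log2 intensity was 6.40, 4.74 and 6.38 in the TMP195 tumours, against 6.65, 5.50 and 6.40 in the DMSO tumours. Tumour 2 was the low one in both groups, and the other 4 tumours lay between 6.38 and 6.65. The range of 1.92 on the log2 scale, or 3.78-fold, was larger than that of 98.6% of genes, where 7.65% of genes had a range of at least 1. The group difference was -0.35 ± 0.50 (SE; interval -1.54 to 0.84; limma, adjusted p = 1.00). It was 0.20 without TMP195 tumour 2, -0.69 without DMSO tumour 2 and -0.14 without both. In whole tumours, fewer cells that express a gene and less RNA of it per cell cannot be told apart.

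The ligands differed from each other in the same tumours. Egf had 6.62, 4.72 and 6.31 in the TMP195 tumours, against 6.03, 6.11 and 6.51 in the DMSO tumours. TMP195 tumour 2 alone was low, and TMP195 tumour 1 was the highest of all. The range was 1.90 over the 6 tumours and 0.59 over the 5 others. The difference of -0.33 ± 0.47 (SE; interval -1.44 to 0.77) turned to 0.25 without TMP195 tumour 2 and was -0.70 without TMP195 tumour 1.

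A trio of ligands was highest where Erbb4 and Egf were lowest. Btc, which encodes betacellulin, had 6.21, 7.04 and 6.58 in the TMP195 tumours, against 6.41, 6.24 and 6.08 in the DMSO tumours. TMP195 tumours 2 and 3 exceeded every DMSO tumour and TMP195 tumour 1 did not. The difference was 0.37 ± 0.21 (SE; interval -0.14 to 0.87; adjusted p = 1.00 in limma), and it was 0.15 without TMP195 tumour 2 and 0.57 without TMP195 tumour 1. Btc had the largest positive difference of the members, 1.29-fold.

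Hbegf, the heparin-binding ligand, had 5.82, 6.64 and 6.10 in the TMP195 tumours, against 6.23, 6.30 and 5.86 in the DMSO tumours. Both the highest and the lowest value were TMP195 tumours. The difference of 0.06 ± 0.22 (SE; interval -0.48 to 0.59) turned to -0.17 without TMP195 tumour 2, to -0.08 without DMSO tumour 3 and to -0.09 without TMP195 tumour 2 and DMSO tumour 2. It was 0.24 without TMP195 tumour 1.

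Tgfa, which encodes TGF-alpha, had 6.02, 6.94 and 6.55 in the TMP195 tumours, against 6.93, 5.90 and 6.24 in the DMSO tumours. TMP195 tumour 2 and DMSO tumour 1 were alike at the top, and DMSO tumour 2 was the lowest. The difference of 0.15 ± 0.32 (SE; interval -0.60 to 0.90) turned to -0.07 without TMP195 tumour 2, to -0.08 without DMSO tumour 2 and to -0.30 without both. It was 0.43 without DMSO tumour 1 and 0.39 without TMP195 tumour 1.

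Ereg, which encodes epiregulin, was the 1 member of 9 whose groups did not overlap, against 6.68% of all genes, or 3.21% on the lower side. It had 3.11, 3.03 and 3.13 in the TMP195 tumours, against 3.36, 3.26 and 3.32 in the DMSO tumours. Every TMP195 tumour was the lower, by a small step. The difference was -0.22 ± 0.08 (SE; interval -0.42 to -0.02), with an unadjusted p = 0.0329 and an adjusted p = 1.00 in limma, and it lay between -0.25 and -0.20 with any 1 tumour left out. In the exact two-sided permutation test it gave p = 0.10, the smallest that 3 tumours against 3 allow, and no other member gave a p under 0.30. The row was dim, with linear intensities of 8.19 to 8.73 in TMP195 tumours and 9.59 to 10.2 in DMSO tumours, at percentile 19.3 of mean intensity over all genes. Its unadjusted p did not stay under 0.05 with a replicate block, a trended prior or median centring, nor with 1 tumour left out in 5 of the 6 cases. Non-overlap was about as common among all genes under the other settings that used 6 tumours (7.4% with cyclic loess, 6.62% with median centring, 6.66% with a gene's rows averaged, 6.77% over every probe set and 5.96% above the 30th percentile of intensity), and commoner with 1 tumour left out: 16.9%, 15.2% and 15.8% without TMP195 tumours 1 to 3, 18.5%, 14% and 14.5% without DMSO tumours 1 to 3, and 28.8% with both tumours numbered 2 left out.

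**Figure D2:**
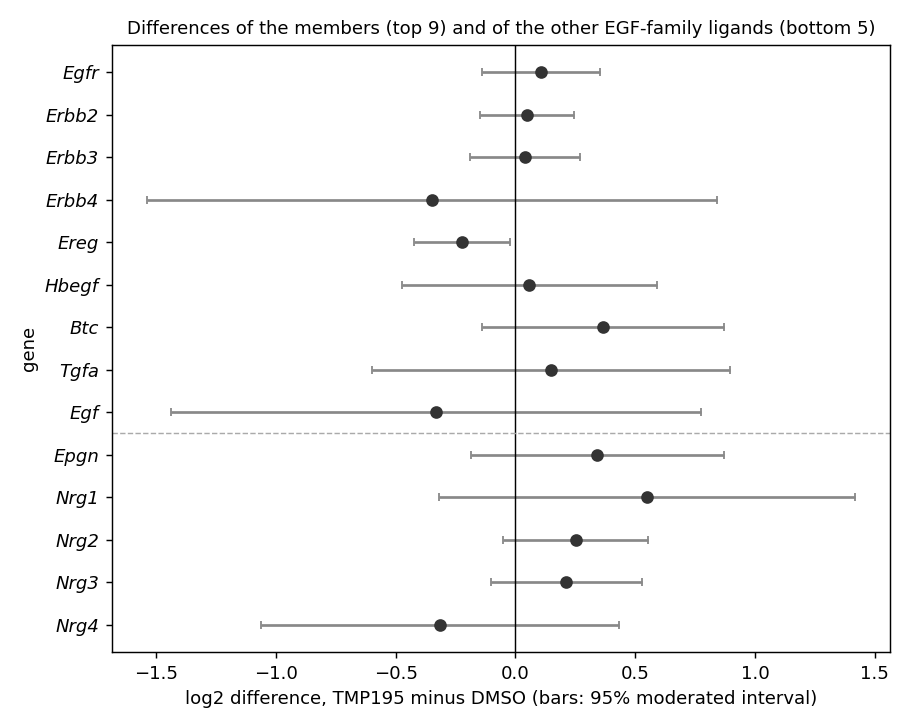
Log2 difference, TMP195 minus DMSO, for the 9 genes (above the dashed line) and for the other EGF-family ligands (below it), with bars for the 95% moderated interval from limma. Every interval except that of Ereg, -0.42 to -0.02, crosses 0, and those of Erbb4 and Egf are the widest among the 9.

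TMP195 tumour 2 was thus an extreme of the family in most genes. It was the highest of the 6 tumours in 5 members (Egfr, Erbb2, Hbegf, Btc and Tgfa) and the lowest in 3 (Erbb4, Ereg and Egf), or 8 of 9 together, against 47.9% of all genes. Some of these margins were narrow. The next tumour was at 6.93 against 6.94 in Tgfa, 8.36 against 8.39 in Erbb2 and 9.71 against 9.76 in Egfr. In the dim Ereg it was at 3.11 against 3.03. The margins were wider in Erbb4, Egf, Btc and Hbegf. DMSO tumour 2 was the lowest in 3 members (Erbb2, Erbb3 and Tgfa; 18.7% of all genes) and the highest in 0, against 42.9% of all genes for either extreme. With TMP195 tumour 2 left out, the signs of Erbb4, Hbegf, Tgfa and Egf turned.

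**Figure D3:**
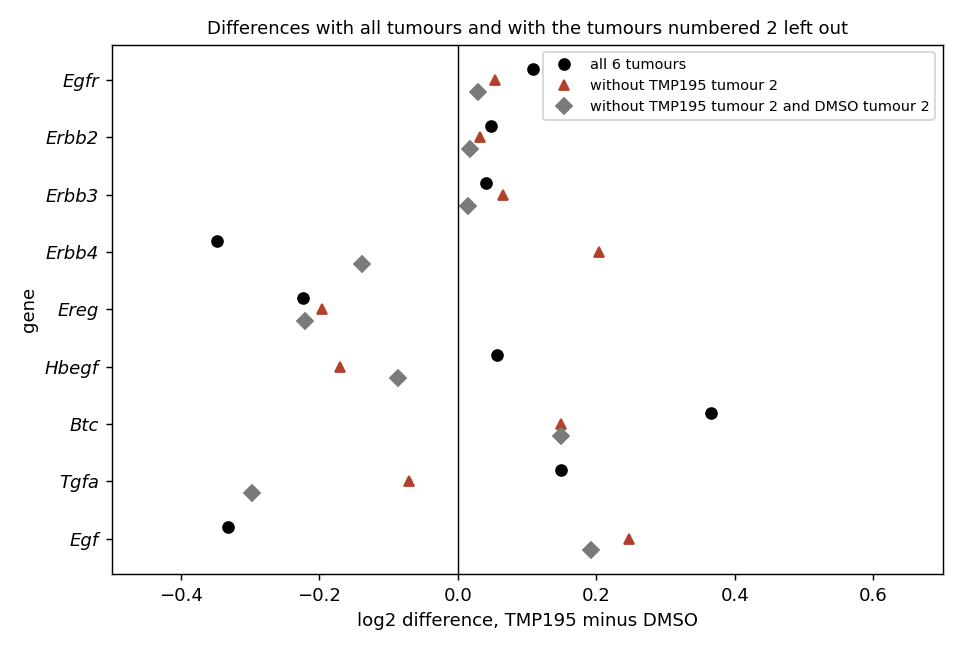
Log2 difference, TMP195 minus DMSO, of each gene from all 6 tumours (circles), with TMP195 tumour 2 left out (triangles) and with the tumours numbered 2 of both groups left out (diamonds). Egfr, Erbb2, Erbb3, Ereg and Btc keep their sign in the 3 settings, and Erbb4, Hbegf, Tgfa and Egf do not.

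Other transcripts set the same tumours apart. Submandibular salivary gland markers are of interest because that gland makes EGF in mice. The summed intensity of the 11 measured markers of 15 was 1496 in TMP195 tumour 2 and 5132 and 5540 in the other TMP195 tumours, against 2670 to 5224 in the DMSO tumours, and 6 of the 11 were lowest in TMP195 tumour 2, as 22.4% of all genes were. Their part in the low Egf was not tested. The sum of 9 adipocyte markers of 10 was 272 in TMP195 tumour 2 and 893 and 4170 in the other TMP195 tumours, against 1277 to 6328 in the DMSO tumours. The 8 fibroblast markers summed to 5028 in TMP195 tumour 2 and 6574 and 8062 in the other TMP195 tumours, against 5423 to 8740 in the DMSO tumours. The 8 luminal epithelial markers, such as Krt8 and Krt18, were read as a check of the labelled tissue and were bright in every tumour, with sums of 11431 to 12821 in the TMP195 tumours, against 11461 to 12276 in the DMSO tumours. Skeletal muscle markers, 8 of 8 measured, summed to 243 to 346 in the TMP195 tumours, against 3152 in DMSO tumour 2 and 250 and 254 in the other DMSO tumours. T cell markers, 7 of 8 measured, summed to 213 in TMP195 tumour 2, where 4 of the 7 were highest, and to 139 and 154 in the other TMP195 tumours, against 137 to 171 in the DMSO tumours. Endothelial markers, 7 of 7 measured, summed to 890 to 970 in the TMP195 tumours, against 734 in DMSO tumour 2, where all 7 were lowest, and 870 and 930 in the other DMSO tumours. The part of these cell types in the members' levels was not tested.

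The summed markers of basal and myoepithelial cells overlapped between the groups. The sum over 8 genes ran from 1326 to 1392 in TMP195 tumours and from 1182 to 1622 in DMSO tumours. It was 1392 in TMP195 tumour 2, where 3 of the 8 genes were the highest of the 6 tumours and 3 the lowest. Over all genes these shares were 25.4% and 22.4%. Krt5, a basal keratin of that list, nevertheless shared the profile of Erbb4, as described next.

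The genes with the profiles most like those of the 3 members that ranged over at least 1 log2 unit were picked by the root-mean-square difference between mean-centred log2 values over the 6 tumours, among 1193 genes that also varied that much and were not dim. The closest to Erbb4 were Saa1, an acute-phase protein, at 0.15, then Krt5 at 0.17 and the extracellular matrix gene Frem1 at 0.19. Krt5 had 8.21, 6.79 and 8.62 in the TMP195 tumours, against 8.74, 7.87 and 8.54 in the DMSO tumours, again low in both tumours numbered 2. The closest to Egf was Cyp2f2, a cytochrome P450, at 0.09, followed by 9130230L23Rik at 0.17 and 1500002F19Rik at 0.17. Cyp2f2 had 8.22, 6.29 and 8.02 in the TMP195 tumours, against 7.84, 7.88 and 8.23 in the DMSO tumours. The closest to Tgfa were Trim47 at 0.11, the monocarboxylate transporter gene Slc5a8 at 0.13 and the microtubule-associated gene Map1b at 0.13. Without TMP195 tumour 2 these distances lay between 0.07 and 0.18.

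The promoters of the same 3 members are shown because these genes varied most between tumours, with Erbb4 and Egf lowest in TMP195 tumour 2 and Tgfa highest there. Each is the stretch of 250 bases before an annotated start, 5′ to 3′ on the gene's strand, from RefSeq on GRCm38.p6. For Egf that start is the outer end of the gene. The Erbb4 gene reaches out to 69108576, so its stretch lies inside the gene, before an internal start. The Tgfa gene begins at 86195038, so its stretch runs past that position into the gene. Capitals mark GC boxes (GGGCGG on either strand), the one searched element that was found in them.
Erbb4, chr1:69108060-69108309, minus strand: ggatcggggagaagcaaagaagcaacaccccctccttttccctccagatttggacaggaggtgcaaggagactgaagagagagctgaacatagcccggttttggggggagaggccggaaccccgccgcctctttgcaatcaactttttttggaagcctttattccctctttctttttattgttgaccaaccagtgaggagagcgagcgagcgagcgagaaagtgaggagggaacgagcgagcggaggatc
Egf, chr3:129755323-129755572, minus strand: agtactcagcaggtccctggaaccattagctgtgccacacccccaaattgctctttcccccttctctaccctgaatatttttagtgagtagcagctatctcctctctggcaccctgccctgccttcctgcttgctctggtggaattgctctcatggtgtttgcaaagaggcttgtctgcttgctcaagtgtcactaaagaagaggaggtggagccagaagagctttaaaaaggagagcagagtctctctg
Tgfa, chr6:86194972-86195221, plus strand: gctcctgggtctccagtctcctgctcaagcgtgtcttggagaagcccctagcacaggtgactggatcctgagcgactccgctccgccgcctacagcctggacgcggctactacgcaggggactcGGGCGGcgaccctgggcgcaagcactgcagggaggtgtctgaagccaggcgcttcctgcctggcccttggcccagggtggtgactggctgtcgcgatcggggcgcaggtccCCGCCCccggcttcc
The Tgfa stretch holds 2 GC boxes, which 32.7% of 32851 promoter stretches of this length hold at least once, and is 69.2% G and C, against a median of 52.4%. The Erbb4 and Egf stretches hold none and are 54.0% and 50.4% G and C. They also differ in CG dinucleotides, with 12 in Erbb4, 0 in Egf and 19 in Tgfa. The TATA box (TATAAA), AP-1 site (TGANTCA), E-box (CACGTG), STAT site (TTCNNNGAA) and MEF2 element were searched on both strands and were not found in these windows. Over all promoter stretches they occur in 12.4%, 6.75%, 6.02%, 7.02% and 2.92%. Of the other members, Egfr has 1 GC box, and Erbb2 and Btc have no match to any of the 6 elements. RefSeq entries were matched for 6 of the 9 measured members. A second annotated start of Egf, which is not printed, also had no match.

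The remaining ligands of the family were compared next. Of the 5, 4 had positive differences and 1 a negative one, the median was 0.25 against -0.001 over all genes, and 0 passed an adjusted p of 0.05 in limma. Nrg1, a neuregulin that activates ERBB3 and ERBB4, had 7.16, 6.99 and 5.69 in the TMP195 tumours, against 5.997, 5.99 and 6.20 in the DMSO tumours. TMP195 tumours 1 and 2 were above every DMSO tumour and TMP195 tumour 3 was below them all. Its difference was 0.55 ± 0.37 (SE; interval -0.32 to 1.42), 1.01 without TMP195 tumour 3 and 0.27 without TMP195 tumour 1. Nrg2 differed by 0.25 ± 0.13 (SE), Nrg3 by 0.21 ± 0.13 and Epgn, which encodes epigen and lies beside Ereg, Areg and Btc on chromosome 5, by 0.34 ± 0.22. Epgn was 0.56 without DMSO tumour 1, 0.17 without DMSO tumour 2 and 0.11 without both tumours numbered 2, and Nrg2 was 0.14 without DMSO tumour 2. Nrg3 was dim, at percentile 16.6 of mean intensity over all genes, and its difference was 0.08 without TMP195 tumour 1. Nrg4 had 5.02, 4.66 and 4.61 in the TMP195 tumours, against 4.53, 4.90 and 5.81 in the DMSO tumours, so DMSO tumour 3 carried its difference of -0.31 ± 0.32, which was 0.05 without that tumour, -0.59 without DMSO tumour 1 and -0.60 with array weights.

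Genes that release the ligands or restrain the receptors were split between higher and lower over the 6 tumours, and the split moved with the tumour left out. More of them were lower without TMP195 tumour 2. Of 7 sheddase, iRhom and inhibitor genes, 4 had positive and 3 negative differences, with a median of 0.01. Without DMSO tumour 3, 6 of the 7 were positive with a median of 0.03, where 47.7% of all genes were positive. Without TMP195 tumour 2, 6 of the 7 were negative with a median of -0.12, where 52.6% of all genes were negative. With array weights 5 of 7 were negative with a median of -0.05, where 49.1% of all genes were. Rhbdf2, an iRhom needed by the sheddase ADAM17, differed by -0.14 ± 0.16 (SE), and by 0.03 without DMSO tumour 1. Timp3, an inhibitor of ADAM17, differed by 0.17 ± 0.34 and by -0.21 without TMP195 tumour 2. Of 13 genes of receptor inhibition and turnover, 7 had positive and 6 negative differences, with a median of 0.006. Without TMP195 tumour 1, 8 of the 13 were positive with a median of 0.08, where 52.2% of all genes were positive. Without both tumours numbered 2, 9 of the 13 were negative with a median of -0.07, where 49.3% of all genes were negative. In that setting 8 of 13 did not overlap on the lower side, as 14.5% of all genes did. Without TMP195 tumour 2 alone these were 8 and 6 of 13, with a median of -0.04 and 8.07% of all genes. Over all 6 tumours 1 of the 13 did not overlap in each direction, against 3.47% of all genes on the higher side and 3.21% on the lower. Cblc, a ubiquitin ligase of the CBL family, had non-overlapping groups at 7.05, 7.02 and 6.87 in the TMP195 tumours, against 7.13, 7.45 and 7.16 in the DMSO tumours (difference -0.27 ± 0.12 SE, and -0.17 without DMSO tumour 2). Lrig1, a membrane protein that promotes receptor degradation, differed by 0.34 ± 0.21, and by 0.11 without TMP195 tumour 2 and 0.006 without both tumours numbered 2. Lrig3, named after its values were seen because its groups did not overlap, differed by 0.12 ± 0.10, and by 0.05 without DMSO tumour 2.

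Adaptors and effectors downstream of the receptors also had a median near that of all genes, with 17 of 22 genes measured, 12 positive and 5 negative differences and a median of 0.02. Sos1, an activator of RAS, had groups that did not overlap by a gap smaller than the rounding of its values, and that overlapped after cyclic loess, at 7.85, 7.95 and 7.96 in the TMP195 tumours, against 7.85, 7.62 and 7.85 in the DMSO tumours, and differed by 0.15 ± 0.10 (SE) and by 0.07 without DMSO tumour 2. Grb2, the adaptor that brings SOS to the receptors, had 7.33, 8.42 and 7.61 in the TMP195 tumours, against 7.56, 7.52 and 7.32 in the DMSO tumours. Its difference of 0.32 ± 0.27 came from TMP195 tumour 2 and was -0.0007 without it. Genes beside Erbb2 on chromosome 11, all 9 measured, gave 4 positive and 5 negative differences with a median of -0.10. That median rested on single tumours, being -0.02, -0.02 and -0.04 when TMP195 tumours 1 to 3 were left out in turn, 0.01 when DMSO tumour 2 was, and 0.02 when both tumours numbered 2 were. Among them Tcap, a muscle gene, differed by -0.40 ± 0.31, and by -0.06 without DMSO tumour 2, the tumour with the high muscle markers, and by -0.71 without DMSO tumour 3. Ikzf3, a lymphocyte transcription factor, differed by 0.28 ± 0.13, and by 0.09 without both tumours numbered 2. Pnmt, named after its values were seen, was the one gene of these 9 with non-overlapping groups on the higher side, where 3.47% of all genes were, and differed by 0.08 ± 0.09. The rows of Pnmt and Ikzf3 were dim, at percentiles 14.0 and 24.5 of mean intensity over all genes. The groups of Pnmt overlapped after median centring, and its difference was 0.04 without TMP195 tumour 2 and 0.02 without both tumours numbered 2.

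ERK feedback and target genes, which are induced when ERK signals, had 15 of 17 differences above 0, as 49.5% of all genes had, with a median of 0.19 against -0.001 over all genes. None passed an adjusted p of 0.05 in limma, where 1 of 17 had an unadjusted p under 0.05 on the higher side, against 1.18% of all genes. With TMP195 tumour 1 left out, 17 of 17 differences were above 0 (52.2% of all genes), 7 of 17 had such a p (1.83%) and 10 of 17 did not overlap on the higher side (9.75%), still with none past an adjusted p of 0.05. Median centring gave 3 of 17 with such a p, against 1.43% of all genes. It gave 3 of 17 without overlap on the higher side, against 4.32%. The block, the trended prior, cyclic loess, the filter on dim genes, array weights and the unmoderated fit gave 2 of 17 with such a p. The shares of all genes were, in that order, 0.943%, 0.968%, 1.37%, 0.788%, 2.45% and 1.43%. Leaving out TMP195 tumour 2 or DMSO tumour 3 also gave 2 of 17, against 1.3% and 0.998% of all genes. Without TMP195 tumour 2, 5 of 17 did not overlap on the higher side, against 7.18% of all genes. On the lower side 2 of 17 did not, against 8.07%. Etv5, an ETS transcription factor induced by ERK, had 9.25, 9.91 and 9.63 in the TMP195 tumours, against 8.91, 8.99 and 9.14 in the DMSO tumours. Every TMP195 tumour was above every DMSO tumour. Its difference was 0.58 ± 0.17 (SE; interval 0.17 to 0.99; limma, unadjusted p = 0.0123, adjusted p = 1.00), and it lay between 0.43 and 0.76 with any 1 tumour left out. Dusp4, a phosphatase of ERK, had 7.85, 7.91 and 8.17 in the TMP195 tumours, against 7.63, 7.57 and 7.86 in the DMSO tumours, which overlap narrowly through DMSO tumour 3. Its difference was 0.29 ± 0.13, and 0.20 without TMP195 tumour 3. Spry1, an inhibitor of receptor tyrosine kinase signalling and named after its values were seen, was the other gene of the list with non-overlapping groups, 2 of 17 on the higher side against 3.47% of all genes. It had 6.89, 6.86 and 6.95 in the TMP195 tumours, against 6.67, 6.74 and 6.72 in the DMSO tumours (difference 0.19 ± 0.08 SE; adjusted p = 1.00 in limma).

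TMP195 tumour 2 was the highest of the 6 tumours in 12 of the 17 ERK genes and DMSO tumour 2 the lowest in 8. Over all genes TMP195 tumour 2 was the highest in 25.4% and DMSO tumour 2 the lowest in 18.7%. The median was 0.30 without TMP195 tumour 1. Without TMP195 tumour 2, 14 of 17 differences were above 0 with a median of 0.14, and without both tumours numbered 2, 13 of 17 with a median of 0.12. The ERK genes and the members were read from the same arrays, so tumour differences shared by many genes enter both.

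**Figure D4:**
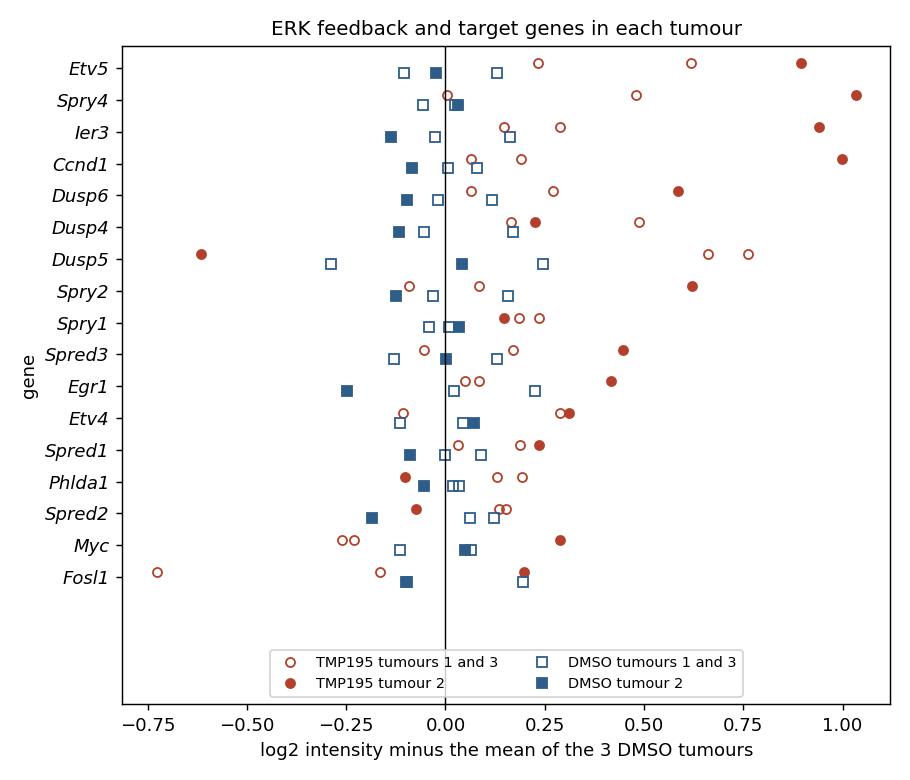
Log2 intensity of 17 ERK feedback and target genes in each tumour, relative to the mean of the 3 DMSO tumours (horizontal axis), with TMP195 tumours as circles, DMSO tumours as squares and tumour 2 of each group filled. Genes run from the largest difference at the top, Etv5 at 0.58, to the most negative at the bottom, Fosl1 at -0.23, and the filled circle of TMP195 tumour 2 is the rightmost point in 12 of 17 genes.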

How the data were processed

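The authors deposited 1 table of array signal intensity, with 27359 probe sets and a column for each of 6 tumours, made with Affymetrix Power Tools and RMA, per the submitters' processing notes. No source used here gives tool versions, filters, a genome build or the scale. The values were taken as linear intensity, since all were above 0 and column medians lay between 44.8 and 46.4 with maxima of 8137 to 8873. Centring by probe set is not stated and the range shows none. RMA as usually run quantile normalizes arrays, which hides any change common to most genes. No scanner files were used here.

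Probe sets were named from the platform annotation, with 21784 having 1 gene symbol, 1620 several and 3955 none. Entrez IDs of 21693 matched a RefSeq gene table (GRCm38.p6), with 0 symbols changed. The row with the highest mean stood for a gene. The fit used limma 3.58.1 (R 4.3.3) on log2 intensity, two-sided, TMP195 minus DMSO, with Benjamini-Hochberg adjustment over 19937 genes and no covariate. The script was tested on simulated data.

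The members and lists were chosen with earlier results of these data known. Named genes were all members, the other EGF-family ligands, the 2 genes of smallest unadjusted p per pathway list and the 3 closest profiles per member with a range of at least 1 on the log2 scale. Those closest profiles were sought above the 30th percentile of mean intensity. Replicate numbers are from the labels. Same-numbered tumours gave correlations of -0.21, -0.06 and -0.10 between their deviations from group means. Tumours of different numbers gave -0.18 to 0.34. With 3 tumours per group such correlations constrain one another and cannot decide whether the numbers are pairs. The main fit did not treat them as pairs. Alternatives were cyclic loess, median centring, a prior with trend and robust fitting, a replicate block, a filter on dim genes, the mean of a gene's rows, all probe sets, array weights, an unmoderated fit and leaving tumours out.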

Additional observations from a re-analysis of the deposited data

How the results depend on the processing

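No alternative gave a gene or a member past an adjusted p of 0.05, and the smallest adjusted p of a member in limma was 0.963. Of 143 values of the members under 16 alternatives, 10 changed sign, and the cause was not tested. Leaving out each tumour in turn gave -0.69 to 0.20 for Erbb4, -0.70 to 0.25 for Egf, -0.17 to 0.24 for Hbegf, -0.078 to 0.43 for Tgfa and -0.011 to 0.11 for Erbb3, and, outside the members, -0.21 to 0.48 for Timp3, -0.00072 to 0.55 for Grb2, -0.24 to 0.026 for Rhbdf2 and -0.59 to 0.053 for Nrg4. With both tumours numbered 2 left out, Hbegf was -0.087, Tgfa -0.30, Egf 0.19 and Timp3 -0.35, and with array weights Timp3 was -0.17. Members with non-overlapping groups numbered 2 with median centring (Ereg and Erbb2), 0 above the 30th percentile of intensity, a filter that removes Ereg and so gives it no value, 2 with both tumours numbered 2 left out and 1 to 2 with each tumour left out, where fewer tumours make overlap rarer (28.8% of all genes without both, and 14.0% to 18.5% without 1). The unadjusted p of Ereg was under 0.05 in the main test but gave 0 members with the replicate block, a trended robust prior or median centring. Genes with an unadjusted p under 0.05 numbered 502, and 243 after the filter on dim genes and 936 with array weights. The replicate block cannot move the differences in this balanced design. It gave 0 members and 0 genes past an adjusted p of 0.05 and 397 genes at an unadjusted p under 0.05. For Erbb4 the SE went from 0.50 to 0.17 and the unadjusted limma p from 0.51 to 0.10. For Ereg that p rose from 0.033 to 0.075.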
